A study of Mus musculus with 2 samples.

Results

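The AP-1 subunit genes Fos, Fosb, Fosl1, Fosl2, Jun, Junb, Jund, Atf3, Batf and Batf3 were followed by single-cell ATAC-seq, an assay in which a transposase cuts the accessible DNA of each nucleus and its cuts are counted. Their members are the peaks that overlap the body of 1 of these 10 genes or lie within 50 kb of one of its transcription start sites (TSS) in GENCODE M21 on mm10. This gave 235 regions with a peak in both libraries, out of 174940 such shared regions in all. Of the 235, 17 lay within 1 kb of a TSS of the AP-1 gene itself, 69 were promoters of another gene, 17 lay in the gene body and 132 were distal, and 2 regions belong to a pair of AP-1 genes at once. The nearest protein-coding TSS was that of an AP-1 gene for 133 regions and that of another gene for 102, so a window is not the same as a gene's regulatory region.

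Both groups were primary mammary organoids of C57BL/6J mice with the genotype shTRPS1.34 ki/+; CAG-rtTA3 tg/+, in which doxycycline induces an shRNA against Trps1, a GATA-type repressor. One group was given 0.1 µg/ml doxycycline (DOX) and the other ethanol (EtOH), each for 7 days, to see which chromatin responds early to loss of Trps1. Cells of several mice were pooled before loading, each group has 1 library, and the study notes that CAG-rtTA3 does not drive the shRNA in every cell. No replicate spread exists, so no difference below was tested. All intervals are 95% intervals, computed on counts divided by 2 because the pair of cuts that makes a fragment mostly lands in a single peak, and they cover counting error only. Doxycycline itself cannot be told apart from the shRNA, since no group received the drug without it. Accessibility does not measure RNA, so the knockdown could not be checked in these libraries.

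AP-1 is a dimeric transcription factor of basic leucine zipper (bZIP) proteins. Jun proteins pair among themselves or with Fos, Atf or Batf proteins, and the dimers bind the motif TGANTCA. Fos, Fosb, Jun, Junb and Atf3 are immediate-early genes that growth factors and stress switch on within minutes through MAP kinases, SRF and its ETS partners, while Batf and Batf3 are known mainly from immune cells. In the mammary gland AP-1 takes part in the response of epithelial cells to growth factors and in involution.

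The DOX library held 3071 nuclei with 224762118 counts, and the EtOH library held 3104 nuclei with 211963715 counts. The median depth was 75296 and 66790 counts per nucleus, and 23 barcodes occurred in both libraries. Nuclei were split by the rate of counts at Ptprc, Csf1r and C1qb, genes of leukocytes and macrophages, at 181 counts per 1000000 counts, after 45 DOX and 35 EtOH nuclei under 5000 counts were left out. Above the cut lay 1120 DOX nuclei (36.5%, 34.8 to 38.2%, exact binomial) and 260 EtOH nuclei (8.38%, 7.43 to 9.41%), called immune nuclei here. Below it lay 1906 DOX and 2809 EtOH nuclei, called epithelial nuclei. The split was checked on markers. Csf1r and C1qb, which set the cut, are among the 9 macrophage markers. The other 7 were higher in the immune nuclei of both libraries, with summed levels of 573 CPM in DOX and 572 in EtOH against 148 and 122 in the epithelial nuclei (CPM, counts per 1000000 counts in shared regions of that class). The 6 epithelial markers were lower there without exception, at 92.4 and 99.6 CPM against 487 and 469. Of the T cell markers 1 of 3 was higher in immune nuclei, of the B cell markers 1 of 3, of the dendritic cell markers 2 of 4, and of the endothelial markers 3 of 4.

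Macrophage signal was not absent below the cut and differed between the libraries there: Tyrobp, a macrophage adaptor gene, stood at 3.87 CPM in DOX and 0.995 in EtOH, and C1qb at 2.44 and 0.697. When all nuclei were clustered, 2 of 8 clusters (3 and 6) were immune by the same genes, and they took up 172 DOX and 50 EtOH nuclei that lie below the cut. The main results for epithelial nuclei are therefore also given for the 1734 DOX and 2759 EtOH nuclei that lie below the cut and outside clusters 3 and 6, a setting chosen after the data were seen and called the agreeing nuclei below. The epithelial nuclei of the libraries also fell into different clusters. Cluster 1 took 57.8% of the EtOH and 2.78% of the DOX epithelial nuclei. Its luminal progenitor markers had a median log2 ratio of 0.52 over all other nuclei, the highest of the clusters, but Cd14 among them was lower (-0.358). Cluster 2 took 70.4% of the DOX and 0.285% of the EtOH nuclei. Its medians were 0.57 for basal, 0.2 for luminal progenitor and 0.14 for hormone-sensing luminal markers. Clusters 4 and 5, in which the hormone-sensing luminal markers stood highest, took 17.7% and 17.2% of EtOH but 6.56% and 4.77% of DOX. Cluster 7, with the highest basal and fibroblast marker levels, took 5.09% of DOX and 4.88% of EtOH.

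The promoters of all 10 genes were open in both classes of nuclei and in both libraries. Per kb of region, the promoter of Jund, the Jun protein with the most steady expression, was the most accessible in EtOH epithelial nuclei at 84.4 CPM per kb. Jun followed at 59.0, Fos at 58.9, Atf3 at 53.5 and Junb at 51.4. Lower levels were held by Fosl2 at 33.1, Fosb at 29.8 and Fosl1 at 16.0, and Batf3 at 5.18 and Batf at 4.79 CPM per kb came last. The counting intervals of Jun and Fos, of Atf3 and Junb, and of Batf3 and Batf overlapped, while the other neighbours in this order stood apart. Each value averages over the promoter regions of a gene, from 1 at Jund, Fos, Atf3 and Batf to 3 at Junb. The order therefore depends on this pooling. Of the Fosl2 signal in EtOH, 57.0 CPM fell in 1 region of 819 bases and 2.03 CPM in another of 964 bases. In DOX epithelial nuclei the order was the same except for Atf3, which stood behind Jund alone at 82.4 CPM per kb. In immune nuclei of EtOH, Jund led these averages again at 110 CPM per kb, ahead of Atf3 at 87.0, Jun at 81.8 and Junb at 78.8. The region at the Jun TSS alone took 104 CPM there, and that of Jund 99.9 CPM.

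**Figure D1:**
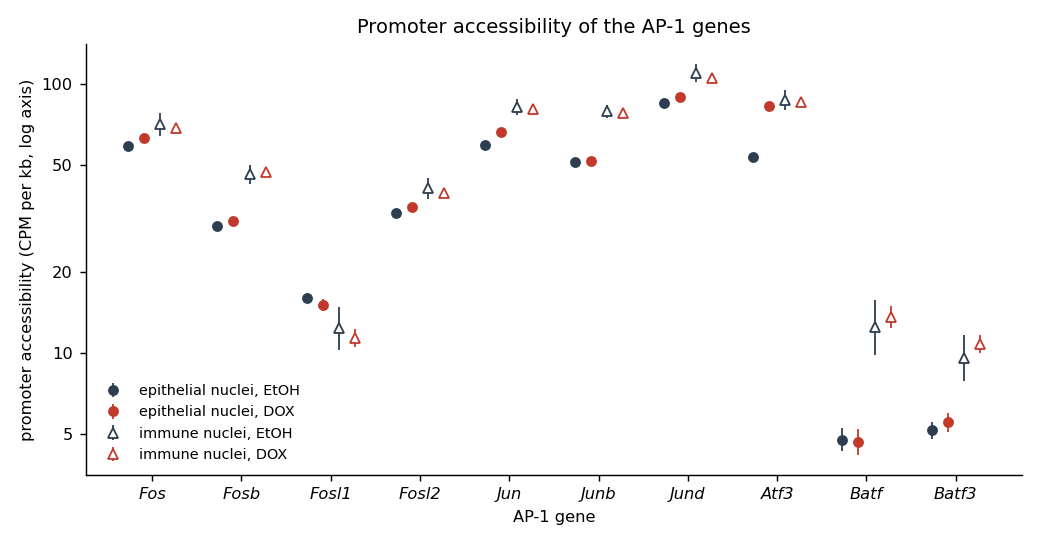
Promoter accessibility of the 10 AP-1 genes in CPM per kb of region (log axis), for epithelial nuclei (filled circles) and immune nuclei (open triangles) of DOX (red) and EtOH (dark blue), with 95% counting intervals. For Atf3 the EtOH epithelial value of 53.5 stands below the other values of that gene, and Batf and Batf3 are low in epithelial nuclei of both libraries. Where a gene has several promoter regions, the value is their average per kb.

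Atf3, a stress-induced gene whose protein pairs with Jun, had the largest difference between the libraries among these promoters. In epithelial nuclei its promoter (chr1:191182973-191183900, mm10) took 76.5 CPM (74.4 to 78.6) in the DOX library but 49.6 CPM (48.2 to 51.1) in the EtOH library, a log2 ratio of 0.62 (0.57 to 0.68). Over the agreeing nuclei the ratio was 0.63 (0.57 to 0.69). In immune nuclei it took 79.5 CPM in DOX and 80.7 in EtOH, a ratio of -0.02 (-0.16 to 0.12), so the DOX epithelial value lay near both immune values and the EtOH epithelial value below them. Within clusters the DOX value was the higher one in each of the 4 epithelial clusters with at least 50 nuclei of both libraries, in no case by more than over the whole class. It was 73.0 against 57.2 CPM in cluster 4, a log2 ratio of 0.35 (0.18 to 0.52), and 61.6 against 40.5 CPM in cluster 7, a ratio of 0.61 (0.33 to 0.89). The ratios of 0.23 (-0.09 to 0.54) in cluster 1 and 0.20 (-0.01 to 0.40) in cluster 5 had intervals that include 0. Cluster 2, made up of DOX nuclei, had 78.8 CPM. In the immune clusters 3 and 6 the ratios were -0.05 and 0.01. The RefSeq promoter of Atf3 (GRCm38.p6, chr1:191183284-191183583, minus strand) is shown because it lies in this region, with the letters GATAA in capitals, the core of the motif read by GATA factors.
Atf3: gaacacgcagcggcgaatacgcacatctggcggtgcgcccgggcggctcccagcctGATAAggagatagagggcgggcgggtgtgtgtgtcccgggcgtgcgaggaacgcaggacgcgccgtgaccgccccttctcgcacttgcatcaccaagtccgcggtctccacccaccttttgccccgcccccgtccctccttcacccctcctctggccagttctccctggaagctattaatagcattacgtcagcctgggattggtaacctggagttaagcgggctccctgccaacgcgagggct
GATAA was found on either strand in 25.4% of the 32851 RefSeq promoters of this length, so its presence here is common.

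Of the other immediate-early members, Jun had the next largest ratio. Its promoter regions took 112 CPM in DOX (109 to 114) and 99.8 in EtOH (97.8 to 102) in epithelial nuclei, a log2 ratio of 0.17 (0.12 to 0.21), and 136 and 138 CPM in immune nuclei. Over the agreeing nuclei the ratio was 0.16 (0.11 to 0.20). In clusters 4 and 5 it was 0.19 and 0.18, and in clusters 1 and 7 it was 0.11 (-0.11 to 0.33) and 0.04 (-0.17 to 0.24), with intervals that include 0. Jun codes for the subunit after which the Jun family is named. Its RefSeq promoter (GRCm38.p6, chr4:95052173-95052472, minus strand) is shown with GATAA in capitals, which occurs 2 times.
Jun: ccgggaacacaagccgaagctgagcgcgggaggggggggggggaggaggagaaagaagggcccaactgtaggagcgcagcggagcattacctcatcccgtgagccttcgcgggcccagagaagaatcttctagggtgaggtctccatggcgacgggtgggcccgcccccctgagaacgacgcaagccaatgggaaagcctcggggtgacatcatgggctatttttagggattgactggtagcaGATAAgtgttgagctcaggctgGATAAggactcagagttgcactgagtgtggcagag
None of the 9 AP-1 genes with a RefSeq promoter sequence held TGANTCA or the cyclic AMP response element TGACGTCA in that window. These letters were found in 7.81% and 1.79% of all RefSeq promoters. Only exact letters were searched, so variants of either motif were not counted. The windows of Jund and Fosl2 do not cover the open promoter region. In the central 300 bases of the open promoter regions, TGACGTCA occurred 1 time at Jund, outside its RefSeq window, and TGANTCA 1 time at Fosl1.

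Fos, the partner of Jun in the classical AP-1 dimer, took 58.1 CPM in DOX and 54.2 in EtOH in epithelial nuclei (log2 0.10, 0.04 to 0.16). In immune nuclei it took 63.0 and 65.1 CPM. Fosl2 took 62.2 and 59.0 CPM (0.08, 0.02 to 0.13) and Jund 81.0 and 76.8 CPM (0.08, 0.03 to 0.13) in epithelial nuclei. Over the agreeing nuclei Fos, Fosl2 and Jund had ratios of 0.11, 0.07 and 0.08. Counting nuclei with at least 1 count in place of summed counts turned Fos and Jund to -0.05 each, and gave 0.02 (-0.05 to 0.09) for Jun and 0.00 (-0.09 to 0.10) for Fosl2. Of the 5 promoters with an interval above 0, Atf3 alone kept one in this way, at 0.16 (0.06 to 0.25), down from 0.62 by summed counts. The size of all 5 ratios thus depends on how the promoter is counted, and for the other 4 so does an interval above 0. The intervals of the other members included 0 in epithelial nuclei, with 57.7 against 55.7 CPM for Fosb, 23.3 against 24.7 for Fosl1, 133 against 132 for Junb, 4.34 against 4.42 for Batf and 9.11 against 8.49 for Batf3. In immune nuclei the intervals of all 10 promoter ratios included 0, and the ratios ran from -0.12 for Fosl1 to 0.17 for Batf3. The EtOH immune nuclei gave from 147 counts at Batf to 2564 at Junb, so a difference under about the width of these intervals was not detectable there.

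No AP-1 promoter reached a 2-fold ratio in either class. Over all protein-coding promoters, 1.94% were at least 2-fold higher and 0.686% lower in DOX in epithelial nuclei, and 0.813% and 0.861% in immune nuclei, each with a minimum of 100 counts.

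The regions around the genes were examined next, with a region called apart at a 2-fold ratio and at least 100 counts over both libraries in that class. In all nuclei together 42 of the 235 AP-1 gene regions were higher and 15 lower in DOX, beside a background of 13.0% and 13.4% over all shared regions. In epithelial nuclei 25 were higher and 9 lower, beside 9.22% and 7.65% of all shared regions. The median log2 ratio of the AP-1 gene regions was 0.03, against -0.02 over all. Of the 34 called, none was an AP-1 promoter. Over all shared regions, promoters were called less often (5.36% higher and 3.62% lower) than other regions (10.1% and 8.60%). Of the AP-1 gene regions, 15.2% and 4.55% of the distal ones were called below the cut, and 5.88% each way in gene bodies. At promoters of other genes it was 5.80% and 2.90%. The AP-1 gene regions also held more counts, with a median of 1773 against 801. Over the agreeing nuclei 228 regions passed the minimum, and 7 were higher and 9 lower in DOX, beside 5.39% and 8.54% of all regions. All 7 were among the 25, and 8 of the 9 were lower below the cut as well.

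The agreeing nuclei leave out nuclei of the immune clusters, so a region open in immune nuclei loses signal there by construction. Of the 18 regions that were higher in DOX below the cut but not over the agreeing nuclei, 18 were at least 4-fold more accessible in DOX immune nuclei than in EtOH epithelial nuclei, as were 2 of the 7 regions that kept the call and 42 of all 235. The median log2 ratio of the 18 over the agreeing nuclei was 0.51. The region 24.7 kb upstream of Batf3, a gene of dendritic cell development, is an example. It took 2.79 CPM in DOX and 0.633 in EtOH below the cut (2.14), 38.4 and 37.5 CPM in immune nuclei, and had a ratio of 0.69 over the agreeing nuclei. The region 10.9 kb downstream of the Batf3 TSS (1.75) had immune levels of 31.4 and 27.4 CPM, and one 21 kb downstream of Jund (1.87) had 13.3 and 10.1 CPM. The same held for the distal regions of Batf3 together, which stood at 101 CPM in DOX and 57.4 in EtOH over all nuclei (0.82), at 0.17 (0.11 to 0.23) in epithelial nuclei and at -0.06 (-0.12 to 0.01) over the agreeing nuclei.

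**Figure D2:**
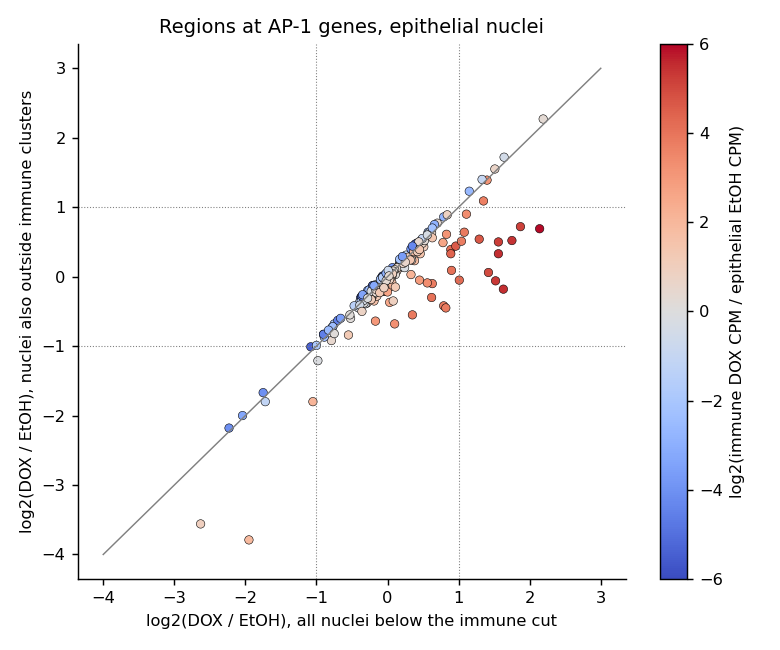
Log2 ratio of DOX over EtOH for the AP-1 gene regions with at least 100 counts, over all nuclei below the immune cut (x axis) and over the agreeing nuclei (y axis), 1 point per region. The colour gives the log2 ratio of the immune DOX level over the epithelial EtOH level, the diagonal marks equal values and the dotted lines mark a 2-fold ratio. Points below the diagonal on the right are red, which marks a higher level in immune DOX than in epithelial EtOH nuclei.

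Of the 7 regions that were higher in DOX by both ways of choosing nuclei, the one with the largest ratio lay 15.2 kb upstream of the most distal Atf3 TSS (chr1:191232523-191233899). It took 5.41 CPM in DOX and 1.18 CPM in EtOH in epithelial nuclei, a log2 ratio of 2.19 (1.89 to 2.51), and 2.27 (1.96 to 2.60) over the agreeing nuclei. In immune nuclei it was low in both libraries, at 1.46 and 1.74 CPM. The DOX value was the higher one in each of the 4 epithelial clusters compared. The values were 8.71 against 1.63 CPM in cluster 4, 6.78 against 3.35 in cluster 5 and 7.70 against 0.686 in cluster 7, all with intervals of the ratio above 0. In cluster 1 they were 0.899 against 0.348 CPM, where the interval of the ratio (-2.52 to 3.66) includes 0, and the DOX nuclei of cluster 2 had 5.30 CPM. In the immune clusters 3 and 6 the values were 1.62 against 1.92 and 0.983 against 1.56 CPM, with intervals of the ratio that include 0. A further Atf3 region 41.2 kb upstream (chr1:191258797-191259743) took 4.00 and 1.51 CPM (1.40) and was at 13.0 and 13.3 CPM in immune nuclei.

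Upstream of Batf, whose protein pairs with Jun proteins in lymphocytes and dendritic cells, 3 of the 7 were found, although its promoter was not apart. The one 20.0 kb upstream (chr12:85666222-85667161) took 10.6 and 3.72 CPM in epithelial nuclei (1.51, 1.32 to 1.70) and 6.00 and 2.69 CPM in immune nuclei (1.16, 0.45 to 1.97). It was thus more accessible in DOX in both classes. Over the agreeing epithelial nuclei the ratio was 1.55. Inside clusters the values were 7.71 against 2.78 CPM in cluster 4 (1.47, 0.83 to 2.10) and 14.6 against 4.21 in cluster 7 (1.79, 1.04 to 2.59). They were 0.665 against 0.445 CPM in cluster 5 and, with EtOH the higher, 3.00 against 4.99 in cluster 1 (-0.74, -2.37 to 0.51), where the intervals include 0. Those 17.6 kb and 27.1 kb upstream had ratios of 1.33 and 1.35 in epithelial nuclei. A region 43.4 kb upstream of Fos (chr12:85429992-85431008) was the most accessible of the 7, with 30.2 CPM in DOX and 13.6 in EtOH (1.15, 1.05 to 1.25), and a ratio of 1.23 over the agreeing nuclei. Inside clusters its ratio was 0.75 (0.46 to 1.04) in cluster 4, 0.19 (-0.22 to 0.59) in cluster 5, 0.96 (0.50 to 1.42) in cluster 7 and -0.41 (-1.26 to 0.32) in cluster 1, so the ratio over the class was larger than within any of these clusters. The last of the 7 lay 49.5 kb upstream of Jund, nearest to Pgpep1 (chr8:70649052-70649945), at 10.6 and 3.41 CPM (1.64, 1.45 to 1.84) and with 1.72 over the agreeing nuclei. Inside clusters it stood at 11.6 against 3.38 CPM in cluster 4 (1.78, 1.24 to 2.31) and 7.45 against 2.52 in cluster 5 (1.56, 0.82 to 2.28). The intervals include 0 in cluster 7, with 20.2 against 16.2 CPM (0.32, -0.15 to 0.79), and in cluster 1, with 1.5 against 2.48 CPM (-0.73, -3.34 to 0.98).

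The regions lower in DOX were led by those around Jun. Of the 9 called in epithelial nuclei, 4 lay at Jun, and the distal regions of Jun together took 27.7 CPM in DOX (26.4 to 28.9) and 42.6 in EtOH (41.2 to 43.9), a log2 ratio of -0.62 (-0.70 to -0.54). Over the agreeing nuclei it was -0.66 (-0.74 to -0.58), while the Jun promoter was slightly higher in DOX. This sum leaves out regions at promoters of other genes, so the called regions at 11.2 kb and 46.2 kb below are not in it. Also left out were such a region at chr4:95075347-95076083 (40.0 and 31.8 CPM, 0.33) and its neighbour (29.0 and 22.1 CPM, 0.39), both higher in DOX. All Jun regions together, promoters included, took 229 CPM in DOX and 221 in EtOH (0.05, 0.02 to 0.08). The region 29.9 kb downstream (chr4:95021879-95022775) took 0.773 and 3.62 CPM (-2.23). The one 11.2 kb downstream (chr4:95040518-95041451), which overlaps the promoter of the transcript Gm12704, took 0.990 and 4.08 CPM (-2.04), and the one 16.6 kb downstream (chr4:95035205-95036111) took 0.940 and 3.16 CPM (-1.75). The fourth (chr4:95097901-95098961) lies 46.2 kb upstream at a promoter of Junos, the transcript on the other strand, and took 2.75 and 9.08 CPM (-1.72). Over the agreeing nuclei these 4 ratios lay between -2.18 and -1.67.

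These Jun regions were open mainly in the clusters with the highest hormone-sensing markers, which hold few DOX nuclei. The region at 11.2 kb stood at 9.67 CPM in cluster 4 and 11.0 CPM in cluster 5 of EtOH, and at 0.203 CPM in cluster 1. In DOX it stood at 3.30 CPM in cluster 4, 8.65 in cluster 5 and 0.339 in cluster 2. The ratio within cluster 4 was thus -1.55 (-2.37 to -0.82) and within cluster 5 -0.35 (-0.94 to 0.19). At 29.9 kb the values were 2.60 against 8.18 CPM in cluster 4 (-1.65, -2.59 to -0.84) and 6.38 against 9.97 in cluster 5 (-0.64, -1.32 to -0.02). All distal Jun regions together had a ratio of -0.73 (-0.98 to -0.49) in cluster 4, -0.30 (-0.53 to -0.09) in cluster 5, -0.37 (-0.74 to 0.00) in cluster 7 and 0.05 (-0.37 to 0.44) in cluster 1. The share of clusters 4 and 5 and the ratios within them both moved with the class value, and their parts were not separated. The central 200 bases (mm10, plus strand) of the regions at 11.2 kb and 16.6 kb are printed because both hold TGANTCA, in capitals, the first with GATAA beside it.
Jun +11.2 kb, chr4:95040884-95041083: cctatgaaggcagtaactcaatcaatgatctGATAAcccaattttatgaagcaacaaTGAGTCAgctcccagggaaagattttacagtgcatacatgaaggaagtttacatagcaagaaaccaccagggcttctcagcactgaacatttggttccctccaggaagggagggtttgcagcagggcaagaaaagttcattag
Jun +16.6 kb, chr4:95035558-95035757: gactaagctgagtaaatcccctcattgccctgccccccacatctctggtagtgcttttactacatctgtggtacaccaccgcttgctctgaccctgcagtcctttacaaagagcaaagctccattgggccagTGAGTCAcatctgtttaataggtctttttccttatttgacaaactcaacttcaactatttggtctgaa

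Of the other lower regions, the one 41.4 kb downstream of Fosl2 took 6.51 and 13.8 CPM in epithelial nuclei (-1.08) and was nearly closed in immune nuclei. The one 21.6 kb downstream of the Batf TSS took 2.54 and 5.25 CPM (-1.05), and over the agreeing nuclei its ratio was -1.80 (-2.14 to -1.48). In the Atf3 gene body, 3.26 kb before the main promoter's TSS (chr1:191186159-191187043), 3.79 and 7.58 CPM were counted in epithelial nuclei (-1.0, -1.21 to -0.79) and 2.05 and 6.56 CPM in immune nuclei (-1.67, -2.24 to -1.09). This region was therefore lower in DOX in both classes, next to the promoter that was higher in DOX epithelial nuclei. Over the agreeing epithelial nuclei its ratio was -0.99, short of the 2-fold limit. In cluster 1 it was level, at 6.59 against 6.55 CPM, and in clusters 4, 5 and 7 DOX was lower, at 3.90 against 8.34, 7.58 against 10.8 and 1.79 against 3.92 CPM. The immune clusters had 1.98 against 7.97 CPM (cluster 3) and 2.90 against 4.15 CPM (cluster 6).

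In a pair of regions the direction was opposite in the classes. The region 16.1 kb upstream of Fosb (chr7:19325585-19326752) took 1.00 CPM in DOX and 6.22 in EtOH in epithelial nuclei, a log2 ratio of -2.63 (-3.01 to -2.27), which was -3.56 over the agreeing nuclei. In immune nuclei it took 12 and 4.58 CPM, a ratio of 1.38 (0.84 to 1.98). The region 38.8 kb upstream of Batf (chr12:85647231-85648510) took 1.29 and 4.97 CPM in epithelial nuclei (-1.95, -2.29 to -1.62), with -3.79 over the agreeing nuclei, and 18.4 and 2.92 CPM in immune nuclei (2.66, 1.99 to 3.41). In EtOH the Fosb region stood at 3.53 to 9.65 CPM and the Batf region at 1.63 to 6.09 CPM in the 6 clusters compared. In DOX they were at most 0.548 CPM in clusters 1, 2, 4, 5 and 7 but at 9.86 and 16.2 CPM (Fosb) and 16.0 and 23.6 CPM (Batf) in the immune clusters 3 and 6. Cluster 1 of DOX, with 54 nuclei, had 0 counts at both, which allows up to 2.21 CPM (exact Poisson bound). In cluster 1 of EtOH the Fosb region stood at 4.98 CPM (4.39 to 5.62) and the Batf region at 6.09 CPM (5.44 to 6.80). The bound lies above the lowest EtOH value of the Batf region, 1.63 CPM in immune cluster 3. The pair makes 2 of the 195 AP-1 gene regions with enough counts in both classes. Over all 80679 such regions, 0.576% were lower in epithelial and higher in immune nuclei of DOX, and 0.0174% the other way round. Over nuclei on which cut and clusters agree, it was 2 of 183 AP-1 gene regions. There the shares of all 73561 regions were 1.13% and 0.0109%, so the AP-1 count lies near the background. The centre of the Fosb region (mm10, plus strand) is shown because it holds the GATA motif 2 times, in capitals, read as TTATC on this strand.
Fosb -16.1 kb, chr7:19326068-19326267: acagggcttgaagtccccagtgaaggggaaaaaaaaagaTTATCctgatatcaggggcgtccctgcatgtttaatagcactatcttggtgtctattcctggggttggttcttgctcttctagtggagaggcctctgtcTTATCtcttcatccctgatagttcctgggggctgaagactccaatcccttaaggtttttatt

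**Figure D3:**
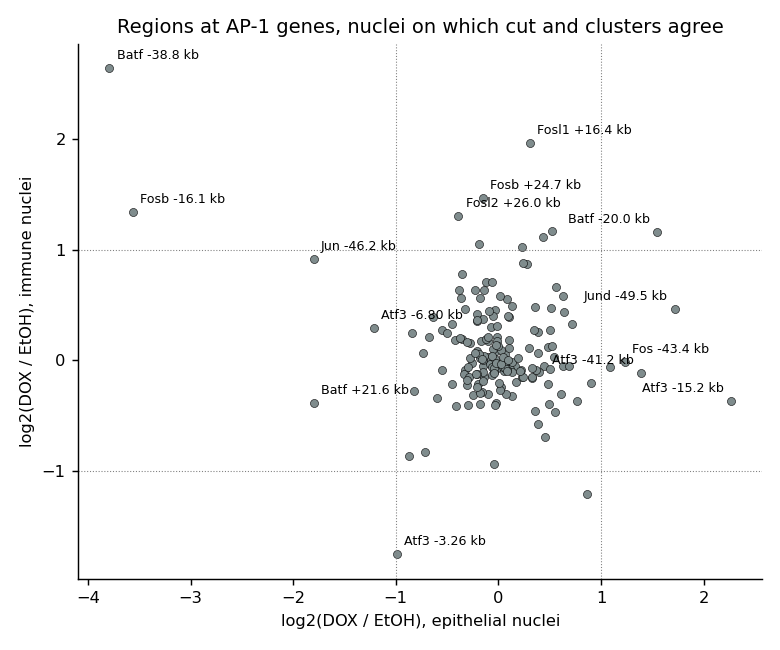
Log2 ratio of DOX over EtOH in epithelial nuclei (x axis) and immune nuclei (y axis), for the AP-1 gene regions with at least 100 counts in both classes, over nuclei on which cut and clusters agree. Labels give the gene and the distance from its TSS, minus for upstream, and dotted lines mark a 2-fold ratio. Most points lie inside the dotted lines, while the regions of Fosb at -16.1 kb and Batf at -38.8 kb stand alone at the upper left.

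**Figure D4:**
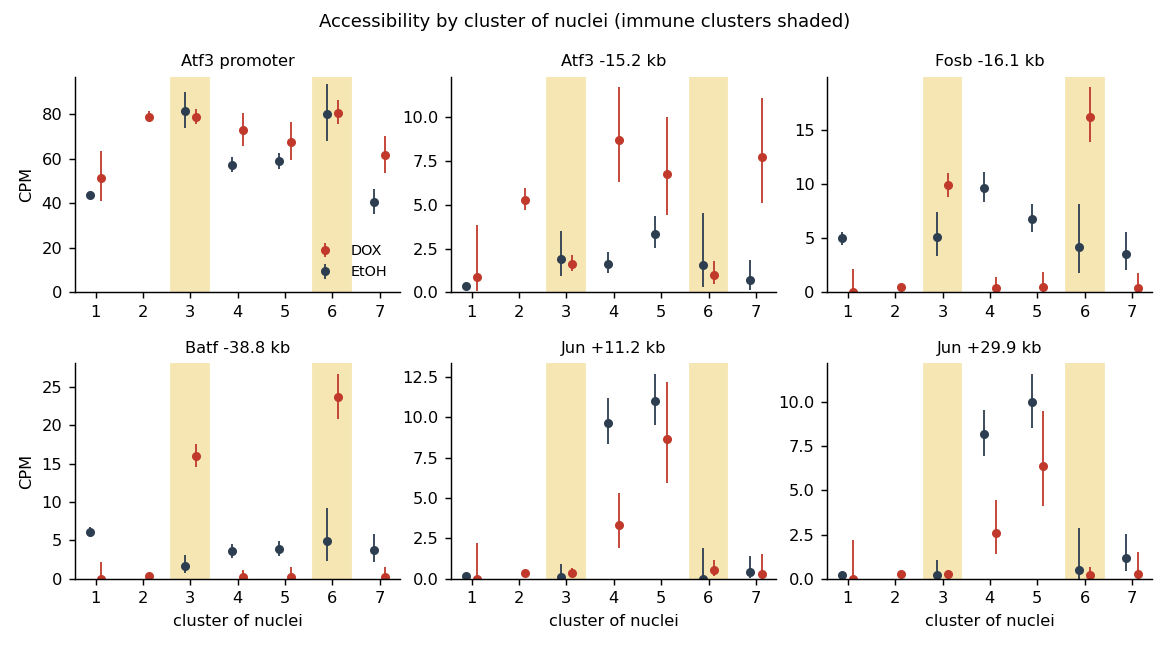
Accessibility in CPM by cluster of nuclei in DOX (red) and EtOH (dark blue) for the Atf3 promoter and 5 regions, with 95% counting intervals and the immune clusters shaded. Clusters with under 50 nuclei of a library are left out, which removes the EtOH value of cluster 2. In DOX the Fosb and Batf regions are highest in the shaded clusters, and in EtOH the Jun regions are highest in clusters 4 and 5.

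In immune nuclei 195 of the 235 regions passed the minimum of counts. Of these 9 were higher and 5 lower in DOX, beside 5.38% and 1.39% of all shared regions, with a median log2 ratio of 0.03 against 0.04 over all. Beside those already described, the higher ones included regions 16.4 kb downstream of Fosl1 at the promoter of Fibp (2.61 and 0.948 CPM, 1.46) and 24.7 kb downstream of the Fosb TSS (2.84 and 1.11 CPM, 1.36). Among the lower ones was the region 3.99 kb downstream of Jund at the promoter of Iqcn (5.96 and 12.5 CPM, -1.07). Several of these rest on few counts, with 12 to 14 in EtOH at the first pair. Leaving out nuclei near the cut left 3 higher and 0 lower.

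Within a library, immune and epithelial nuclei differed more at some AP-1 genes than DOX and EtOH did. The Batf promoter was 12.6 CPM in immune and 4.34 in epithelial nuclei of DOX, and 11.6 and 4.42 in EtOH, log2 ratios of immune over epithelial of 1.53 and 1.39. For Batf3 the ratios were 0.96 in DOX and 0.90 in EtOH at the promoter and 1.76 and 1.87 over the distal regions. The promoters of Fosb (0.61 and 0.63) and Junb (0.59 and 0.62) were also more open in immune nuclei of both libraries, as were the distal regions of Fosl2 (1.23 and 0.93) and Fosb (0.97 and 0.72). Fosl1, a Fos protein linked to epithelial migration, was the one promoter lower in immune nuclei (-0.40 and -0.37), and the distal regions of Jund were lower too (-0.86 and -0.79). At Atf3 the promoter ratio was 0.06 (-0.01 to 0.12) in DOX and 0.70 (0.57 to 0.83) in EtOH, and at the distal regions of Jun it was 0.29 and -0.38. The immune values of the libraries were alike at both, with 33.8 and 32.8 CPM at the distal Jun regions. Over single regions, 65 of 235 AP-1 gene regions were at least 2-fold higher in immune nuclei in DOX and 57 of 233 in EtOH, where the background was 18.6% and 15.8%. Lower by as much were 54 and 55, beside a background of 51.3% and 54.8%. The median log2 ratio was 0.30 in both libraries for the AP-1 gene regions, against -1.12 in DOX and -1.36 in EtOH over all regions. No background over promoters alone was computed for immune over epithelial nuclei. The promoter ratios above can therefore not be called particular to the AP-1 genes.

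Peaks present in 1 library alone were not compared, since the other library has no count there. The AP-1 windows held 43 such peaks in DOX and 46 in EtOH, of 46831 and 53523 in all, with medians of 363 and 267.5 counts. Relative to the class totals, 40 of the 43 DOX peaks and 16 of the 46 EtOH peaks were more accessible in immune than in epithelial nuclei of their library. These shares are 93.0% and 34.8%, beside 73.0% and 9.21% over all peaks present in DOX or EtOH alone. Peaks were called library by library, and immune nuclei made up 36.5% of DOX but 8.38% of EtOH. The shares of the 2 libraries therefore cannot be set against each other.

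The central 300 bases of the AP-1 gene regions held TGANTCA in 19.6% of 235 cases, against 20.9% of all shared regions. GATAA was found in 24.3% against 28.3%, TGACGTCA in 0.851% against 0.724%, and the CArG box, the motif of SRF, in 2.55% against 1.58%. In epithelial nuclei the 46 AP-1 gene regions with TGANTCA had a median log2 ratio of -0.03, against -0.11 for all regions with it. The 57 with GATAA had a median of 0.22, against 0.05 for all regions with GATAA. Of the 57, 9 (15.8%) were at least 2-fold higher and 3 (5.26%) lower in DOX, beside 13.6% and 7.60% of all regions with GATAA. These motif values cover all nuclei below the cut, where 18 of the 25 higher calls were lost over the agreeing nuclei. They were not computed over the agreeing nuclei.

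Promoters of genes around AP-1 were read from 4 lists. The other bZIP genes, which code for alternative partners and competitors, had 0 of 31 promoters at least 2-fold apart in either class, with the highest ratio in epithelial nuclei at Nfe2 (22.8 and 16.1 CPM, 0.50, 0.39 to 0.60, and 0.42 over the agreeing nuclei). Inside clusters the Nfe2 ratio was 0.57 (0.30 to 0.84) in cluster 4. It was 0.36 in cluster 5, 0.11 in cluster 7 and -0.10 in cluster 1, with intervals that include 0. Of the 24 genes that signal to AP-1, the MAP kinases, SRF and its cofactors, 1 was at least 2-fold higher and 0 lower in both classes. This was Elk4, which codes for an ETS partner of SRF. Its promoter took 34 CPM in DOX and 14.5 in EtOH in epithelial nuclei (1.23, 1.13 to 1.32) and 40.2 and 18.4 CPM in immune nuclei (1.13, 0.86 to 1.41), and its ratio over the agreeing epithelial nuclei was 1.22. It was higher in DOX in clusters 1, 3, 4, 5, 6 and 7, with log2 ratios of 0.73 to 1.43 and all intervals above 0. With nuclei that have a count in place of summed counts, 0 promoters of the 4 lists reached a 2-fold ratio in immune nuclei. For the remaining genes of this list with at least 200 counts the ratios in epithelial nuclei lay between -0.15 for Mapk10 and 0.17 for Rps6ka3.

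Of the 20 other immediate-early genes, 0 were 2-fold apart in either class. Egr3 had the highest ratio in both, with 32.7 and 22.8 CPM in epithelial nuclei (0.52, 0.43 to 0.61, and 0.56 over the agreeing nuclei) and 23.1 and 17.5 CPM in immune nuclei (0.40, 0.12 to 0.70). Inside clusters its ratio was 0.60 (0.23 to 0.96) in cluster 1 and 0.81 (0.53 to 1.09) in cluster 4. The intervals include 0 in cluster 5 (0.32, -0.10 to 0.72) and cluster 7 (0.13, -0.24 to 0.50). Nr4a1 (0.22) and Klf4 (0.27) came next in epithelial nuclei. Among the AP-1 target genes, 23 of 24 were tested in epithelial and 22 in immune nuclei. In epithelial nuclei 1 was at least 2-fold higher and 0 lower. It was Il1b, a cytokine gene of macrophages, at 1.44 and 0.548 CPM (1.39, 0.89 to 1.91), and its ratio over the agreeing nuclei was 0.27 (-0.53 to 1.07). Vim, the gene of the intermediate filament vimentin, took 21.1 and 11.4 CPM (0.89, 0.78 to 1.01), with 0.81 over the agreeing nuclei, and inside clusters 4, 5 and 7 the ratios were 0.50, 0.46 and 0.54, and -0.09 (-0.95 to 0.66) in cluster 1. Mmp13, a collagenase gene, took 1.65 and 2.80 CPM (-0.76, -1.09 to -0.44), with -1.23 (-1.63 to -0.85) over the agreeing nuclei. Inside clusters its ratio was -0.81 (-1.76 to 0.02) in cluster 4, -0.25 (-0.93 to 0.38) in cluster 5 and -0.10 (-1.59 to 1.32) in cluster 7. In cluster 1 it was 1.10 (-4.30 to 3.80), so all these intervals include 0. In EtOH it stood at 4.74 and 7.89 CPM in clusters 4 and 5, which hold few DOX nuclei, and at 0.280 CPM in cluster 1. In immune nuclei 0 target genes were 2-fold apart. The medians of the 4 lists in epithelial nuclei ran from 0.03 to 0.09, beside 0.03 over all protein-coding promoters.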

How the data were processed

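The file headers name Cell Ranger ATAC 2.0.0 as the source of the deposited counts; nuclei and peaks were called library by library. The authors applied no normalization to the counts, which are whole-number transposase insertions per peak and nucleus, and the submitters' processing notes name mm10. Of the nonzero values 13.8% and 14.3% were odd, as when both ends of a fragment fall in a peak. Peaks were merged with bedtools 2.31.1 (overlap of at least 1 bp), and regions with a peak of both libraries, which hold 94.5% and 94.7% of the counts, were compared as CPM within each class. Intervals are exact Poisson for CPM and exact conditional binomial for ratios. The immune cut was set by Otsu's method on the counts of 20 regions at Ptprc, Csf1r and C1qb (gene body and 5 kb upstream). Clusters used LSI components 2 to 30, 15 neighbours and Leiden partitioning (leidenalg 0.10.2 on igraph 0.11.9, resolution 0.5, seed 1).

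With 1 library per group no p-value was computed. A region was called at a 2-fold ratio and 100 counts. The call was also run on simulated data. That run cannot stand in for replicate libraries, so it does not show how often such a call would recur. The regions described are up to 5 with the highest and 5 with the lowest ratio in each class among those with at least 200 counts, all promoters of the members, and the 3 highest and lowest genes of each list. The others named, among them the remaining regions called over the agreeing nuclei, were chosen after their values were seen. The members and lists were chosen with earlier results of these data known. Motifs were searched on both strands. RefSeq promoter sequences matched 9 of the 10 genes. Those of Jund and Fosl2 do not cover the open promoter region. Calculations used Python 3.11.15, numpy 2.4.6, scipy 1.17.1, pandas 2.3.3, scikit-learn 1.9.0 and matplotlib 3.10.9. Other scalings, cuts, minimums and windows were tried, with the effects given at the end. The sources differ on how many mice were pooled, and a legend of the study names wild-type mice where the labels name shTRPS1 mice. The labels were followed.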

Additional observations from a re-analysis of the deposited data

Results flagged for a closer look

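The ratios of DOX over EtOH took opposite signs in epithelial and immune nuclei at some members, and these differences were not tested because each group has 1 library. The region 16.1 kb upstream of Fosb had a log2 ratio of -2.63 in epithelial and 1.38 in immune nuclei, and the region 38.8 kb upstream of Batf -1.95 and 2.66. Smaller values of opposite sign, each with an interval apart from 0, were found for the distal regions of Fos (0.05 and -0.10), for all Fos regions together (0.08 and -0.10) and for the distal regions of Fosl2 (-0.11 and 0.19). Below the cut, DOX held more macrophage signal than EtOH (Tyrobp 3.87 and 0.995 CPM). Its part in these values was not tested for Fos and Fosl2, where the ratios over the agreeing nuclei were 0.05 and -0.13 for the distal Fos regions and -0.23 and 0.13 for those of Fosl2. At the regions of Fosb and Batf the opposite signs were larger over those nuclei, at -3.56 and 1.34 and at -3.79 and 2.64. Of all 73561 regions tested there in both classes, 1.13% were likewise at least 2-fold lower in epithelial and higher in immune nuclei.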

How the results depend on the processing

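No paired analysis was possible because there is a single library per treatment, and for the same reason no library could be left out. In epithelial nuclei the count of 25 higher regions was 7 with classes from clusters, 8 without nuclei near the cut, 7 over the agreeing nuclei, 16 by nuclei with a count, 2 within 10 kb and 6 with clusters weighted equally. The 9 lower regions became 1 within 10 kb and 5 with equal weights. In immune nuclei the 9 higher regions became 3 without nuclei near the cut and 0 within 10 kb, and the 5 lower ones 2 by clusters, 0 without nuclei near the cut, 1 by nuclei with a count, 2 at 200 counts, 21 with no minimum and 2 over the agreeing nuclei. Over all nuclei, the 42 higher regions became 3 and the 15 lower ones 2 within 10 kb, and the lower 6 by nuclei with a count. The 5 AP-1 promoters higher beyond the interval in epithelial nuclei became 1 by nuclei with a count. In immune nuclei, promoters lower beyond it went from 0 to 1 by clusters, without nuclei near the cut or with promoters of 2 kb, and 3 by nuclei with a count. For whole loci in epithelial nuclei, the 5 higher beyond the interval became 3 by clusters and over the agreeing nuclei. The 1 lower became 3 in these settings, without nuclei near the cut and by nuclei with a count, and 0 with the median ratio set to 0. In immune nuclei the 2 lower loci became 4 by nuclei with a count. The 2 list promoters higher in epithelial nuclei became 1 by clusters, without nuclei near the cut, by nuclei with a count, within 2 kb and over the agreeing nuclei, and the lower ones went from 0 to 1 in the first, second and last of these. In immune nuclei the 1 higher became 0 by nuclei with a count. The Batf3 locus in epithelial nuclei turned to -0.03 by clusters, -0.00 without nuclei near the cut and -0.03 over the agreeing nuclei. By nuclei with a count, the promoters of Fos and Jund turned to -0.05 and -0.05, and the Jun locus to -0.10. The agreeing nuclei were chosen after the data were seen. The causes of these moves were not tested. Of the other values, 101 counts and 217 single values stayed near the reported ones and 37 single values moved. Groups of few nuclei, such as the 54 DOX nuclei of cluster 1 and the 260 EtOH immune nuclei, gave wide intervals.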
